A study of Mus musculus with 12 samples.

Results

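Where neighbouring protein-coding genes lie almost end to end, the chromatin between them was mapped in activated neurons of the mouse infralimbic prefrontal cortex. A gap was defined as the stretch between 2 protein-coding genes of RefSeq on chromosomes 1 to 19 whose annotated spans do not overlap and whose facing ends lie 1000 bp or less apart, and its window as the gap plus 500 bp on each side. There were 2014 such gaps, formed by 3614 of 20665 coding genes (17.5%), with a median length of 259 bp. Accessible regions (peaks) from 3 ATAC-seq libraries that overlapped a window numbered 1220 of 80735 peaks in EXT replicate 1 (1.51%), 1300 of 123375 in EXT replicate 2 (1.05%) and 1276 of 97961 in RC replicate 3 (1.30%). Of these, 74.3%, 78.5% and 75.9% touched the gap itself. The 1977 windows left after merging covered 2.67 Mb.

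The mice were C57BL/6 males aged 10 to 12 weeks, and all had received 3 tone and foot shock pairings the day before. In another context, the extinction group (EXT) then heard 60 tones with no shock, while mice of the retention control group (RC) stayed there as long and heard none. Each library was made from 50000 cells sorted for NeuN and Arc together, from the pooled tissue of 5 mice, and ATAC-seq marks open DNA by the cuts of a transposase. NeuN is a nuclear protein of neurons, and Arc is a synaptic protein made soon after a neuron has fired, so the cells of both groups carried Arc. A replicate is thus a pool of animals, and the tests below treat each pool as 1 unit. For differences over 3 libraries, the p-value takes its floor whenever all agree in direction, whatever the spread. The SDs over 3 libraries mix 2 EXT pools with 1 RC pool. Complete peak lists of 2 EXT libraries and 1 RC library were used over the whole genome, and the lists of RC replicates 1 and 2 only on the part of chromosome 1 that they reach. EXT replicate 3 and the lncRNA capture libraries were not analysed here.

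Transcription starts at the 5′ end of a gene, in a promoter where nucleosomes are displaced and the transposase can cut. When neighbours point away from each other (divergent), the promoters of both genes face each other across the gap, and such shared or bidirectional promoters are known to be rich in CpG dinucleotides and to serve many housekeeping genes. When the genes point towards each other (convergent), only their 3′ ends, where transcripts are cleaved and polymerase leaves the DNA, face each other. In a tandem pair the 3′ end of one gene faces the 5′ end of the next. Strand was known for 16457 coding genes (79.6%), which sorted the gaps into 565 divergent, 448 tandem and 422 convergent ones and left 579 without an orientation. Divergent gaps were the shortest, with a median of 100 bp, against 452.5 bp for tandem and 381 bp for convergent gaps. Of all gaps, 111 overlapped some other gene of any class.

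The sequences below show what such a gap holds. They are RefSeq promoter windows of 300 bases in the build GRCm38.p6, each on the minus strand, with the listed transcription start at base 251. Capitals mark exact matches, on either strand, to the core letters of the NRF1, ETS, NF-Y, SP1, YY1 and CRE motifs. The first 4 gaps were open in all 3 libraries. Ormdl2 (a regulator of sphingolipid synthesis) has its start at base 251 and the start of Sarnp (an mRNA export factor) at base 116, and the window holds 5 NF-Y and 1 SP1 match. In the Mrps12 window the start of Sars2 lies at base 115. Uso1 (a vesicle tethering factor) starts at base 67 of the G3bp2 window (a stress granule protein), which holds 1 NRF1 match. In the Atm window the outer ends of Atm and of Npat lie at bases 94 and 33. The Best1 window, with the end of Rab3il1 at base 215, comes from a divergent gap without a peak in any of the 3 libraries, and it holds 1 CpG where the Atm window holds 28.
Ormdl2 (chr10:128821580-128821879): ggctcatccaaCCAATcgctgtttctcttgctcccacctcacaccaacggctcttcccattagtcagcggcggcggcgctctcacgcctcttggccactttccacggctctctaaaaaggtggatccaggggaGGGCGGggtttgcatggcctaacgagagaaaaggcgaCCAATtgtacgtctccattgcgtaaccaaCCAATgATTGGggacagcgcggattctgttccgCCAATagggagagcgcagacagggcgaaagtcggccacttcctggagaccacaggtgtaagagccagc
Mrps12 (chr7:28741772-28742071): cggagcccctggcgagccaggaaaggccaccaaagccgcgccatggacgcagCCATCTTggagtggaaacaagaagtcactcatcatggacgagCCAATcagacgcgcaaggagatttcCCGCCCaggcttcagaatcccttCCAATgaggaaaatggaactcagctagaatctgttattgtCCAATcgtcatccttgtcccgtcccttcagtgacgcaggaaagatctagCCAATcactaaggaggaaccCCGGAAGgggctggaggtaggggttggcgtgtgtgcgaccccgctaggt
G3bp2 (chr5:92137676-92137975): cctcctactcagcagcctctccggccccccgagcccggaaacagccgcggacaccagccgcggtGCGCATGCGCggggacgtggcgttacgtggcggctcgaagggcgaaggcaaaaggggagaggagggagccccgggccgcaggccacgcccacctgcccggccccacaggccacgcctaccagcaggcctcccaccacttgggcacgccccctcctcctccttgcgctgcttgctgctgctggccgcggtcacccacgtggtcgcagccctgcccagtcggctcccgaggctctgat
Atm (chr9:53536622-53536921): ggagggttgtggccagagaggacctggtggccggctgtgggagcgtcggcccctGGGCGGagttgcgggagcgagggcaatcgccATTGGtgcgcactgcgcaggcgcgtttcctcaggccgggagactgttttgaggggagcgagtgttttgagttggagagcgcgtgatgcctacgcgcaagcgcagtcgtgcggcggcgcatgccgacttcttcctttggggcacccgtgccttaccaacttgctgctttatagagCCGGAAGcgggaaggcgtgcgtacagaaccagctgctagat
Best1 (chr19:10001584-10001883): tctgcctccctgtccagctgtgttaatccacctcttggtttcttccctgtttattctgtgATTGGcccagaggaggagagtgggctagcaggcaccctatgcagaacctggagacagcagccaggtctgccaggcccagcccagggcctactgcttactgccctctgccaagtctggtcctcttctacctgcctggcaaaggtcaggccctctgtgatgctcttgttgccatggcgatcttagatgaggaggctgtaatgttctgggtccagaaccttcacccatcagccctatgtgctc

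The libraries held 65.0 M tags in EXT replicate 1, 57.7 M in EXT replicate 2 and 73.8 M in RC replicate 3. EXT replicate 2, with the fewest tags, had the longest list, and shares of open gaps followed list length. With lists cut to equal length, divergent gaps were open in 77.5 percentage points more cases than convergent gaps, against 75.3 with the full lists. Neuronal identity was checked at the 5′ ends of marker genes within 500 bp. Of the 4 neuronal markers with a known strand, Syt1 and Slc17a7 had a peak in all 3 libraries, Rbfox3 (the gene of NeuN) in EXT replicate 2 only, and Gad1 in none; the strand of Snap25 and Arc was not known. The markers Mog (oligodendrocytes), P2ry12 and Cx3cr1 (microglia), Gfap and Slc1a3 (astrocytes) and Flt1 (endothelium) had no peak in any library. Cldn5, an endothelial tight junction gene, had one in all 3, and the part of such cells in the results was not tested. The listed markers Mbp and Sox10 (oligodendrocytes), Csf1r (microglia), Aqp4 (astrocytes) and Pecam1 (endothelium) had no known strand and were not checked.

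Open gaps were common or rare according to orientation. A peak lay in 508 of 565 divergent windows in EXT replicate 1 (89.9%, exact 95% binomial interval 87.1 to 92.3%), in 527 in EXT replicate 2 (93.3%, 90.9 to 95.2%) and in 521 in RC replicate 3 (92.2%, 89.7 to 94.3%). Among 448 tandem windows the counts were 238 (53.1%), 285 (63.6%) and 263 (58.7%) in the same order of libraries. Of 422 convergent windows, 53 (12.6%), 83 (19.7%) and 73 (17.3%) held a peak. As background served the 32914 coding gene ends of either kind with known strand. Within 500 bp, 27.1% had a peak in EXT replicate 1, 32.3% in EXT replicate 2 and 28.9% in RC replicate 3. Divergent windows thus lay far above that level and convergent windows below it in each library, although gap windows are longer than end windows by the length of the gap. That level mixes 5′ and 3′ ends, while only 3′ ends face a convergent gap. In equal windows, convergent 3′ ends lay above single 3′ ends, at means of 12.5% and 5.63%. The 579 gaps of unknown orientation fell between, at 46.3%, 52.7% and 48.4%. Over all 2014 gaps the shares were 53.0%, 59.6% and 56.5%. These intervals cover counting error only.

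The share of open divergent gaps averaged 91.8% ± 1.72 and that of open convergent gaps 16.5% ± 3.62 (SD, n = 3 libraries). The difference was 75.3 ± 1.90 percentage points, in the same direction in 3 of 3 libraries (two-sided exact sign-flip permutation p = 0.25, the smallest that 3 libraries allow). Tandem gaps averaged 58.5% ± 5.25, which put them 33.3 ± 3.57 percentage points below divergent and 42.0 ± 1.76 above convergent gaps (divergent minus tandem and tandem minus convergent, exact permutation p = 0.25 each). All 3 differences were larger than the spread between libraries, and that p was also the floor for every 3-library comparison that follows. On each class, EXT replicate 2 had the highest and EXT replicate 1 the lowest share, so RC replicate 3 lay between the EXT libraries.

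**Figure D1:**
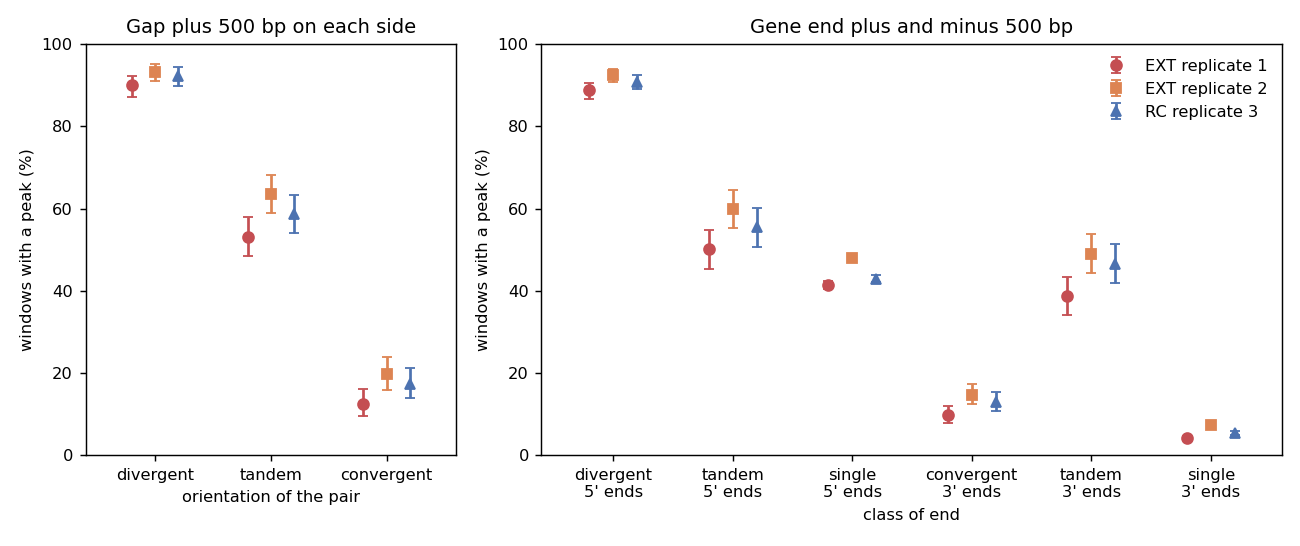
Share of windows with a peak in each library, as a percentage, with exact 95% binomial intervals as bars. Left, gap windows by orientation; right, windows of 500 bp on each side of single gene ends or of ends that face a neighbour. Divergent gaps lie near 90% and convergent gaps below 20% in all 3 libraries.

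Much the same gaps were open in each library. A peak was present in all 3 lists at 993 of 2014 gaps (49.3%) and in none at 737 (36.6%). Of the coding gene ends with known strand, 24.2% had a peak in all 3. By orientation, 501 divergent gaps (88.7%), 218 tandem gaps (48.7%) and 29 convergent gaps (6.87%) were open in all 3. The strongest peaks of such a gap overlapped between lists at 962 of the 993 gaps for EXT replicate 1 and EXT replicate 2, 962 for EXT replicate 1 and RC replicate 3, and 967 for EXT replicate 2 and RC replicate 3. Their summits, the points of highest pileup, lay 37, 31 and 30 bp apart at the median. For convergent gaps the overlap was 26, 29 and 26 of 29.

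Divergent gene starts were compared with starts that stand alone, with no other coding gene within 5 kb. Within 500 bp of the 5′ end, 996 of 1123 divergent starts had a peak in EXT replicate 1 (88.7%), 1038 in EXT replicate 2 (92.4%) and 1020 in RC replicate 3 (90.8%). The 11074 single starts reached 41.3%, 47.9% and 42.9%. Divergent starts averaged 90.7% ± 1.88 and single starts 44.0% ± 3.40, a difference of 46.6 ± 1.78 percentage points (SD, n = 3 libraries, exact sign-flip permutation p = 0.25, higher in 3 of 3). The divergent starts are not independent of each other, since both genes of a gap often share 1 peak. Among CpG-rich promoters alone, defined below, the difference was 18.9 percentage points, with 95.0% of divergent and 76.1% of single starts open. These windows lie at the outer 5′ end, while base composition was taken at the listed start. In windows at the listed start the difference was 11.4 percentage points.

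Peaks at divergent starts also ranked somewhat higher within their own list. The authors' fold enrichment of a peak, its pileup over the local background of the same library, was turned into a percentile of its list, since folds are not comparable between lists. The best peak of a divergent start lay at a median percentile of 78.2 in EXT replicate 1, 90.9 in EXT replicate 2 and 82.6 in RC replicate 3. Single starts with a peak had medians of 74.2, 82.8 and 75.3. The difference averaged 6.44 ± 2.21 percentile points (n = 3 libraries, exact permutation p = 0.25, higher in 3 of 3), and the ranges between the quartiles of both overlapped widely in every library.

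Starts in tandem pairs lay closer to single starts. A peak was found at 223 of 445 in EXT replicate 1 (50.1%), 267 in EXT replicate 2 (60.0%) and 247 in RC replicate 3 (55.5%), or 11.2 ± 2.07 percentage points more than at single starts (exact permutation p = 0.25, higher in 3 of 3). That difference depended on which genes were compared. It was 6.24 percentage points without olfactory, vomeronasal, trace amine and taste receptor genes, which make up 1242 of the single starts. Among CpG-rich promoters it turned to -0.708 percentage points in windows at the outer 5′ end (exact permutation p = 0.5). There 75.4% of tandem and 76.1% of single starts were open. In windows at the listed start the difference was 2.25 percentage points. The peaks at tandem starts ranked lower than those at single starts, with median percentiles of 61.7, 71.2 and 64.4 and a mean difference of -11.7 ± 0.797 points (exact permutation p = 0.25, lower in 3 of 3).

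At 3′ ends the levels were far lower. Facing convergent 3′ ends had a peak within 500 bp at 83 of 841 in EXT replicate 1 (9.87%), 124 in EXT replicate 2 (14.7%) and 108 in RC replicate 3 (12.8%). Single 3′ ends had one in 4.23%, 7.27% and 5.40% of 10102 cases. The difference of 6.85 ± 1.05 percentage points was higher in 3 of 3 libraries (exact permutation p = 0.25), and it grew with the window, from 3.93 points within 250 bp to 12.6 points within 1000 bp, where a wider window reaches more of both genes. The few convergent peaks were weak, at median percentiles of 24.1, 28.9 and 29.6, against 47.7, 45.4 and 46.7 for single 3′ ends (mean difference -19.1 ± 3.94, exact permutation p = 0.25, lower in 3 of 3). Tandem 3′ ends had a peak in 38.7%, 49.0% and 46.5% of 447 cases. That is 39.1 ± 4.02 percentage points above single 3′ ends (exact permutation p = 0.25), in windows that usually also contain the start of the next gene.

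**Figure D2:**
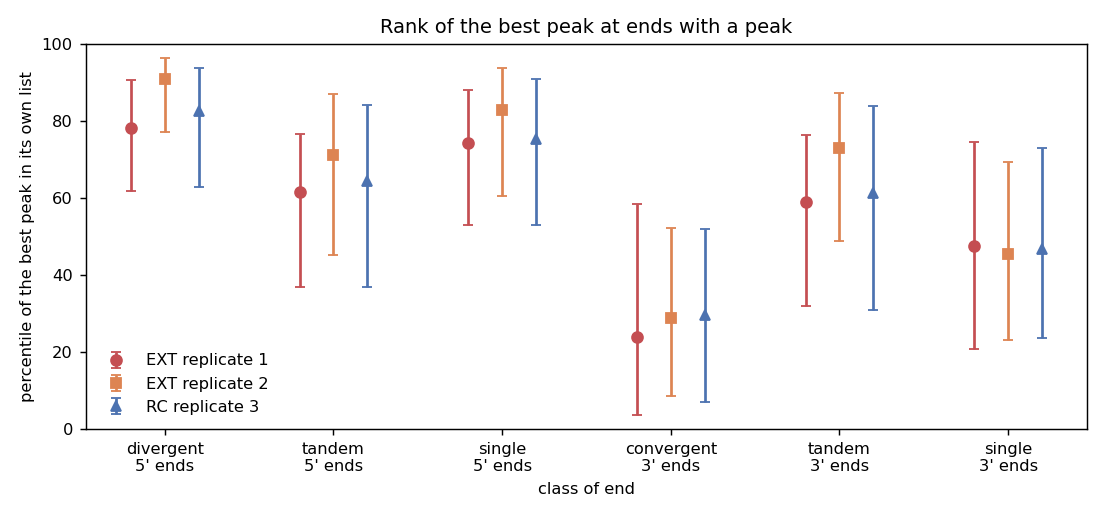
Percentile, within its own peak list, of the strongest peak at each class of gene end that has a peak. Points are medians and bars the range between the quartiles in each library. Divergent 5′ ends have the highest medians (78.2 to 90.9) and convergent 3′ ends the lowest (24.1 to 29.6).

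Profiles across the ends placed this accessibility. Coverage by peaks at divergent starts was highest at -50 bp, which lies in the gap unless the gap is shorter. There 80.8% of starts in EXT replicate 1, 88.2% in EXT replicate 2 and 84.6% in RC replicate 3 lay under a peak. At single starts the maximum was at the start itself, with 30.1%, 38.2% and 31.8%. At 500 bp upstream, 25.7%, 34.9% and 28.9% of divergent starts were still covered, against 6.02%, 7.52% and 7.16% of single starts. Since 523 of 565 divergent gaps are 500 bp or less, that position usually lies in the partner gene, beyond its start. Downstream the profiles came close together, with 13.3%, 14.9% and 15.6% of divergent and 8.82%, 12.9% and 9.15% of single starts covered at 500 bp. Convergent 3′ ends were covered in 1.07%, 2.26% and 1.66% of cases at the end itself, which was no local maximum. Tandem 3′ ends showed a broad rise 500 to 550 bp beyond the end, up to 25.3%, 34.2% and 30.2%.

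**Figure D3:**
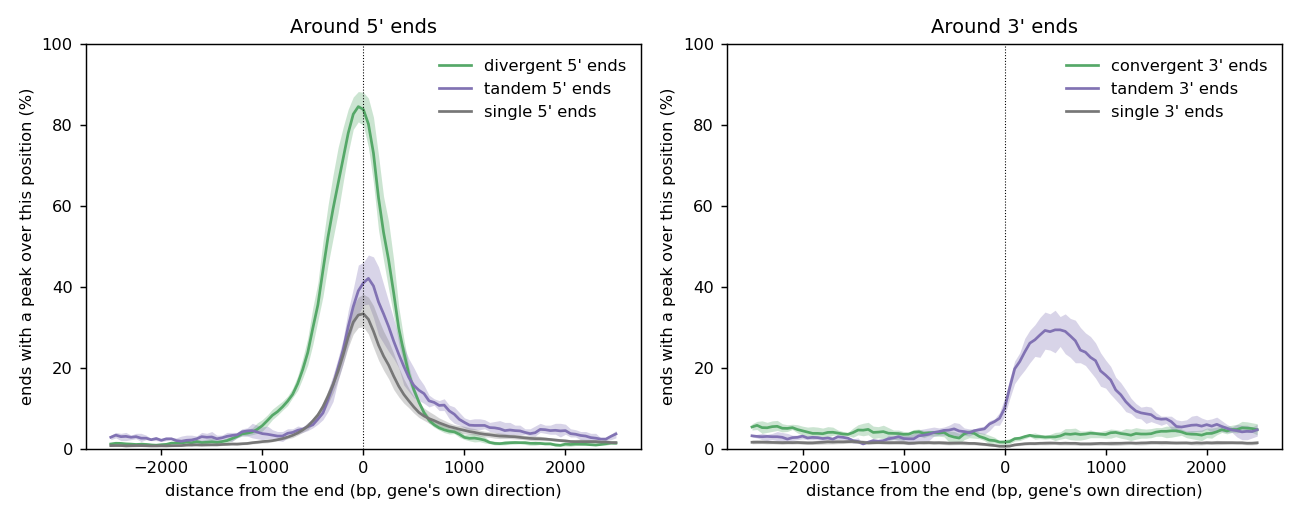
Share of gene ends covered by a peak at each distance from the end, in bp in the gene's own direction, from 5′ ends (left) and 3′ ends (right). Lines are means and bands the range over the 3 complete libraries. Divergent 5′ ends are covered in 80.8 to 88.2% of cases at -50 bp, and single 5′ ends in 30.1 to 38.2% at the end itself.

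A single peak usually bridged both promoters of a divergent pair. Among open divergent gaps, 415 of 508 in EXT replicate 1 (81.7%), 470 of 527 in EXT replicate 2 (89.2%) and 443 of 521 in RC replicate 3 (85.0%) had 1 peak that covered both facing ends. Only 12.2%, 17.2% and 14.4% of open tandem gaps and 1.89%, 4.82% and 1.37% of open convergent gaps did, but these gaps were longer. Among open gaps of 0 to 100 bp, 90.6%, 97.7% and 95.0% of divergent and 32.0%, 44.1% and 36.0% of tandem gaps were bridged. Of open convergent gaps of that length, 0 of 6, 2 of 8 and 1 of 9 were. The strongest peak of a divergent gap was 575.5, 742 and 654 bp wide at the median, against 423.5, 554 and 487 bp in tandem and 200, 266 and 199 bp in convergent gaps. The median convergent peak was thus about as wide as the median peak of all other places, 204, 240 and 202 bp. Divergent summits fell in the gap itself in 44.7%, 50.3% and 46.4% of cases, and the rest were spread over the lower and the upper gene in shares of 24.3 to 28.6%.

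Bridging was rarer where the starts lay further apart. In divergent gaps of 0 to 100 bp it reached 90.6%, 97.7% and 95.0% of open gaps in EXT replicate 1, EXT replicate 2 and RC replicate 3. In gaps of 301 to 600 bp it was 62.3%, 75.8% and 64.5%. In the 31 gaps of 601 to 1000 bp it was 16.0%, 15.4% and 15.4%, or 4 gaps in each library, although 80.6%, 83.9% and 83.9% of these gaps were open. Of the long open gaps, 40.0%, 53.8% and 38.5% held at least 2 peaks. Among 42 divergent gaps over 500 bp, both starts had a peak within 250 bp at 18, 23 and 19, one start at 17, 12 and 18, and neither at 7, 7 and 5.

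**Figure D4:**
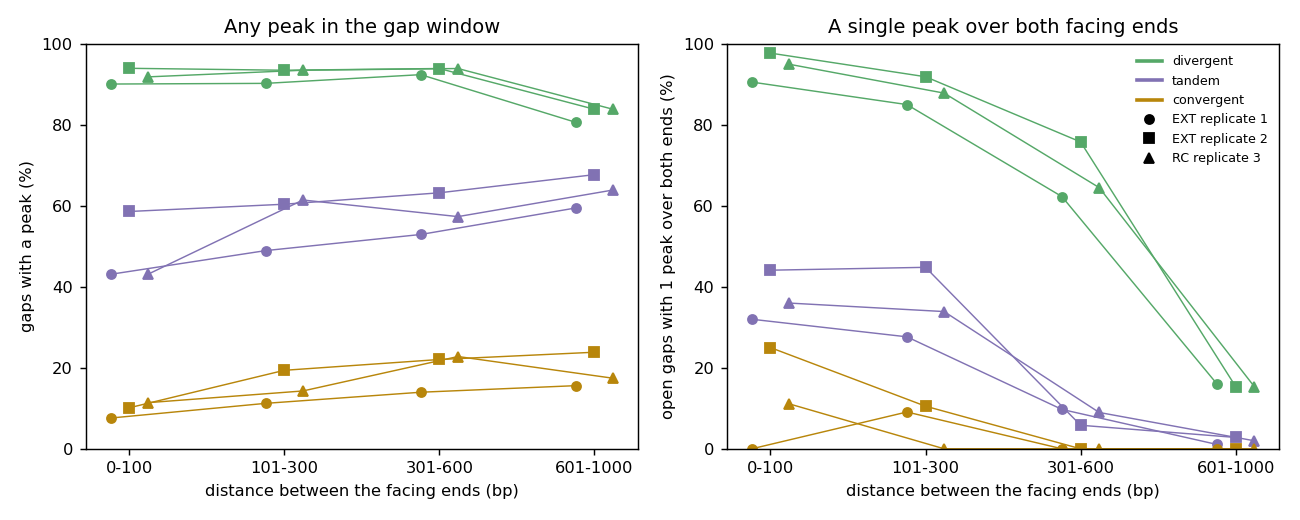
Left, share of gaps with a peak in the window by distance between the facing ends, in bp. Right, share of open gaps in which 1 peak covers both ends. Colours mark orientation and symbols the library; the share of open divergent gaps stays above 80% at every length while bridging falls to 15.4 to 16.0% in the longest class.

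In tandem gaps the open DNA sat with the start rather than the end. In the 197 tandem gaps over 500 bp, where windows of 250 bp keep the ends apart, the 5′ end had a peak at 91 gaps in EXT replicate 1 (46.2%), 111 in EXT replicate 2 (56.3%) and 103 in RC replicate 3 (52.3%). The facing 3′ end had one at 24 (12.2%), 30 (15.2%) and 33 (16.8%). The difference was 36.9 ± 3.74 percentage points (n = 3 libraries, exact permutation p = 0.25, higher in 3 of 3). Over all open tandem gaps the summit lay in the gene whose 3′ end faces the gap in 7.98%, 10.2% and 7.98% of cases. In the 155 convergent gaps over 500 bp, both ends had a peak at 2, 1 and 2 gaps.

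The base composition of the promoters went with these classes. In the 300 bases at the listed start, the median GC content was 62.0% for 1123 divergent, 58.3% for 445 tandem and 55.3% for 11074 single promoters. The ratio of observed to expected CpG had medians of 0.843, 0.629 and 0.522. Windows of both genes of a divergent gap often overlap, so divergent promoters share bases and are not independent. Counting as CpG-rich a promoter with at least 50% GC and a ratio of at least 0.6, 81.0% of divergent, 50.8% of tandem and 42.8% of single promoters were CpG-rich, against 33.5% of all 32851 listed starts. The Ormdl2, Mrps12, G3bp2 and Atm windows printed above have 57.7%, 56.3%, 73.0% and 64.0% GC. That of Best1 has 56.3%, so it differs from the Mrps12 window not in GC but in CpG, with 1 against 16.

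The difference between divergent and single promoters was smaller among CpG-rich promoters than among the others in each library. Within 500 bp of the listed start, CpG-rich divergent promoters were open in 93.3%, 96.3% and 94.9% of cases in EXT replicate 1, EXT replicate 2 and RC replicate 3, against 80.2%, 88.7% and 81.4% of CpG-rich single promoters. The difference was 11.4 ± 3.34 percentage points (n = 3 libraries, exact permutation p = 0.25, higher in 3 of 3). CpG-rich tandem promoters, at 81.9%, 89.4% and 85.8%, exceeded single ones by 2.25 ± 1.97 points (exact permutation p = 0.25), about the spread between libraries. Of the other promoters, 56.8%, 63.8% and 63.4% of divergent, 29.7%, 42.9% and 36.1% of tandem and 17.9%, 23.3% and 19.6% of single ones were open. Divergent promoters were thus 41.1 ± 2.49 points and tandem promoters 16.0 ± 3.95 points above single ones (exact permutation p = 0.25 each, higher in 3 of 3). A divergent window can be open through the promoter of the partner gene.

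**Figure D5:**
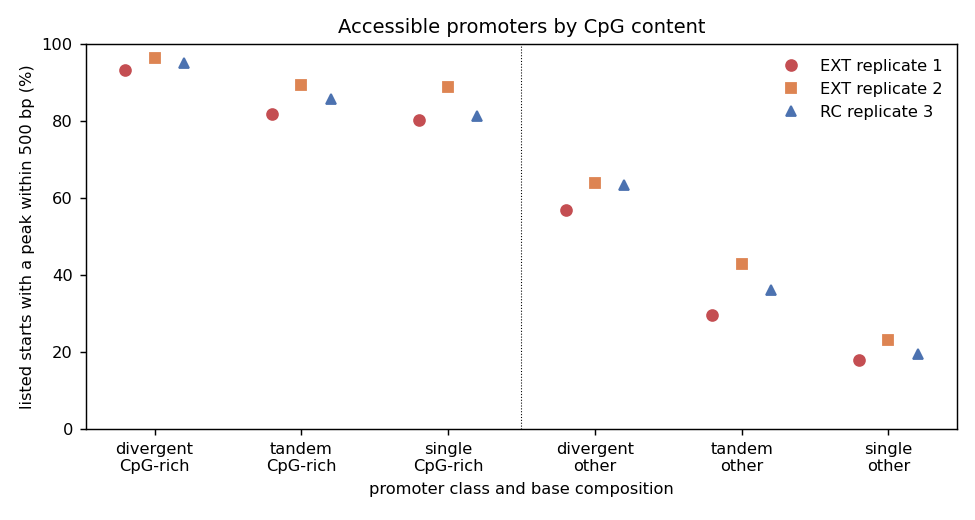
Share of listed starts with a peak within 500 bp, by promoter class, for CpG-rich promoters (left of the dotted line) and all others (right). Each point is a library. Divergent promoters are the most open class on both sides, and single promoters drop from above 80% to below 24%.

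Motif letters were counted in the same 300 bases on both strands, where a match is a description of the sequence and no motif contains the letters of another. Where the windows of a divergent gap overlap, the same match can count for both genes, as the NRF1 match does for G3bp2 and Uso1. The ETS core CCGGAAG occurred in 27.2% of divergent, 18.0% of tandem and 9.26% of single promoters, and in 8.86% of all listed starts. The palindromic 10-letter NRF1 sequence, seen in capitals in the G3bp2 window, was found in 3.56%, 1.57% and 1.16% (0.971% of all). The YY1 core AAGATGG, present in the Mrps12 window, was found in 11.0%, 6.29% and 5.73% (6.34% of all). SP1 GGGCGG reached 66.3%, 56.6% and 44.5% (35.7% of all), and NF-Y CCAAT 45.2%, 42.5% and 38.4% (37.4% of all). CRE TGACGTCA lay in 3.83%, 3.15% and 2.17% (1.79% of all). The order was the other way for the TATA box, searched as TATAAA, at 5.88%, 9.44% and 15.6% (13.6% of all), and for AP-1 (TGANTCA), at 3.74%, 5.39% and 7.98% (7.81% of all). Within CpG-rich promoters ETS was also more frequent in divergent (30.4%) and tandem (29.6%) than in single promoters (15.8%), while SP1 was not (74.4%, 72.1% and 79.1%). Among these promoters the order for the TATA box did not hold, with 3.63% of divergent, 7.52% of tandem and 5.19% of single promoters. Those for AP-1 (2.86%, 2.21% and 3.37%) and CRE (4.18%, 4.87% and 3.82%) did not hold either.

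Divergent pairs that are textbook cases of shared promoters were open in all 3 libraries wherever they met the definition. Atm, a kinase of the DNA damage response, and Npat, a coactivator of histone gene transcription, lie 60 bp apart. Their gap had folds of 9.84 in EXT replicate 1, 17.6 in EXT replicate 2 and 13.5 in RC replicate 3, from a single bridging peak at chr9:53536596-53537610, chr9:53536485-53537244 and chr9:53536568-53537332 in that order. Brca1, a DNA repair protein, and Nbr1, an autophagy receptor, are 151 bp apart and had folds of 7.62, 14.1 and 10.5, with peaks of 1518, 1359 and 1424 bp. For Mrps12, a protein of the mitochondrial ribosome, and Sars2, the mitochondrial seryl-tRNA synthetase, the folds over the 135 bp gap printed above were 8.08, 8.58 and 8.45. The 43 bp between Mcm4, a subunit of the replicative helicase, and Prkdc, the catalytic subunit of DNA-dependent protein kinase, gave 7.18, 14.9 and 7.64; their strand was not known here. Psmb9, an immunoproteasome subunit, and Tap1, a peptide transporter of antigen presentation, had folds of 3.70, 10.4 and 4.48, the lowest of these 5 pairs in EXT replicate 1 and RC replicate 3 but not in EXT replicate 2, where Mrps12/Sars2 was lower. There the peak bridged both starts in EXT replicate 2 only. Other textbook pairs were not members, since the annotated spans overlap for Hspd1/Hspe1 (by 96 bp), Col4a1/Col4a2 (85 bp), Col4a3/Col4a4 (114 bp), Ppat/Paics (277 bp) and Surf1/Surf2 (239 bp), and Polr2f and Sox10 lie 3138 bp apart.

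Leaving out pairs with a gene named only by an identifier, here and for the other orientations, the divergent gaps of highest mean percentile had these values. At Ormdl2/Sarnp the folds were 12.4 in EXT replicate 1, 16.7 in EXT replicate 2 and 13.0 in RC replicate 3, at percentiles of 98.7, 99.4 and 99.0, and the peaks spanned chr10:128821502-128821980, chr10:128821517-128822029 and chr10:128821507-128821996. These 3 intervals nearly coincide and each covers the whole printed window. Nop14, a ribosome assembly factor, and Grk4, a kinase of G protein-coupled receptors, are 101 bp apart and had folds of 19.1, 12.8 and 18.1. G3bp2/Uso1 had 12.0, 15.6 and 12.2, and the pair of Hspa14, an Hsp70 family member, and Cdnf, a neurotrophic factor, had 10.8, 18.3 and 12.1. Atm/Npat completed the 5. Over the 501 divergent gaps open in all 3 libraries, the mean percentile of the best peak had a median of 83.3 and ran from 14.7 to 99.6.

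In tandem pairs the top gaps were open at or near the start that faces the gap. Scfd1, a factor of vesicle fusion, starts behind the end of G2e3, a ubiquitin ligase, and its peaks had folds of 10.8, 14.3 and 11.9. Fyco1, which links autophagosomes to transport along microtubules, starts 415 bp from the 3′ end of the chemokine receptor gene Xcr1, with folds of 10.0, 17.0 and 10.2. Atp5e, a subunit of mitochondrial ATP synthase, followed with 10.2, 15.0 and 10.1, and Esrra, an orphan nuclear receptor of energy metabolism, with 9.02, 13.3 and 11.6. At Zbed5/Nupr1l the gap is 30 bp and 1 peak covered both ends in each library, with folds of 11.1, 12.1 and 10.2.

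Convergent gaps open in all 3 libraries were few, and convergent peaks mostly lay inside a gene, with the summit in the gap in 28.3%, 22.9% and 21.9% of open convergent gaps. The highest ranked was Ubd/Olfr94, a ubiquitin-like modifier and an olfactory receptor, with folds of 12.4 in EXT replicate 1, 8.53 in EXT replicate 2 and 11.1 in RC replicate 3, at chr17:37197110-37197515 in EXT replicate 1, within Olfr94. At Dnah14/Lbr, an axonemal dynein and the lamin B receptor, the folds were 13.9, 8.30 and 10.6, from peaks of 205, 160 and 160 bp that begin at the same base. Pskh1/Ctrl had 4.10, 6.24 and 5.07 within Pskh1, a protein kinase gene. At Duox1/Shf the folds were 3.72, 7.23 and 5.62, and at Smim27/Ndufb6 4.43, 7.78 and 4.14. In the shortest convergent gaps open in all 3, the place could differ between libraries. At Vill/Plcd1, 1 bp apart, the strongest peaks lay in Vill in EXT replicate 1 and RC replicate 3 and in Plcd1 in EXT replicate 2, and at H2ac21/H2ac20 in H2ac20 in EXT replicate 1 and RC replicate 3 and in H2ac21 in EXT replicate 2. At Tead2/Cd37 the summits lay in Cd37, with folds of 3.06, 5.86 and 3.86, and the EXT replicate 2 peak covered both ends, and at Ubap1/Kif24 in Kif24, with 2.92, 2.92 and 3.08. Histone genes occur in near-identical copies, so reads there may be shared between them.

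Divergent gaps without a peak in any of the 3 libraries numbered 29 of 565 (5.13%), and they were not longer than the open ones, with medians of 103 and 100 bp. Their promoters had a median GC content of 54.3%, against 62.2% for the 501 gaps open in all 3, and a CpG ratio of 0.449 against 0.856. CpG-rich promoters made up 37.9% and 85.0%. Leaving out genes named only by an identifier, the shortest were Zfp944/Zfp758 (zinc finger genes, 1 bp), Best1/Rab3il1 (a chloride channel and a Rab exchange factor, 35 bp), Deaf1/Eps8l2 (41 bp), Dusp3/Cfap97d1 (42 bp) and Tmie/Als2cl (46 bp), where Deaf1 is a transcription factor, Dusp3 a phosphatase and Tmie a protein of hair cells. The ends used are the outermost annotated ones, so a promoter further inside such a gene is not counted. Zinc finger clusters and the histone, Mup and olfactory receptor genes among these 29 have close copies, and a missing peak there is uncertain.

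The share of genes in a close pair varied between the functional families counted. Of 80 histone genes 45 (56.3%) were in a pair, of 51 DNA repair genes 23 (45.1%), of 28 RNA polymerase subunit genes 11 (39.3%), of 78 mitochondrial ribosome genes 30 (38.5%), of 35 aminoacyl-tRNA synthetase genes 13 (37.1%) and of 48 genes with Psm symbols (proteasome subunits and their assembly factors) 16 (33.3%), against 17.5% of all coding genes. None of 57 clustered protocadherin and none of 17 immediate early genes, Arc and Fos among them, were in a pair, and 7 of 1104 olfactory receptor genes were. Gaps open in all 3 libraries made up 21 of 27 DNA repair pairs (77.8%), 21 of 29 histone pairs (72.4%), 23 of 34 mitochondrial ribosome pairs (67.6%), 10 of 15 synthetase pairs (66.7%), 10 of 15 RNA polymerase pairs (66.7%) and 12 of 20 proteasome pairs (60.0%), against 49.3% of all pairs. Divergent gaps, the most open orientation, were 12 of 27 DNA repair, 10 of 29 histone and 16 of 34 mitochondrial ribosome pairs. They were 6 of 15 synthetase, 9 of 15 RNA polymerase and 7 of 20 proteasome pairs, against 565 of all 2014 pairs. Whether these families differ beyond orientation was not tested. Of 5 olfactory receptor pairs 1 was open, the convergent pair with Ubd.

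The family examples with and without a peak came from several orientations. Among mitochondrial ribosome genes, the divergent Mrpl47/Ndufb5 had folds of 8.23, 15.5 and 9.57 in EXT replicate 1, EXT replicate 2 and RC replicate 3 and Mrpl41/Pnpla7 8.90, 13.0 and 8.96, while the convergent Mrpl16/Stx3 had no peak. Psma2, a proteasome core subunit, and Mrpl32 share a 204 bp divergent gap with folds of 6.73, 11.5 and 6.63, and the convergent Psmc5/Smarcd2 had none. Of the RNA polymerase genes, Lnx2/Polr1d (7.65, 10.6 and 8.64) and Dzank1/Polr3f (7.61, 9.79 and 8.14) were divergent and open, and Xpo5/Polr1c and Lysmd3/Polr3g convergent and without a peak. For DNA repair, Hscb/Chek2 lie 6 bp apart with folds of 8.97, 14.3 and 10.9, whereas Apex1/Pip4p1 (convergent) and Spib/Pold1 (tandem) had no peak. Among the synthetases, the convergent Naxd/Cars2 and Yars/C77080 had no peak. Histone gaps varied: H2ac6/H2bc4 had 6.44, 11.6 and 8.53, and the divergent H2ac24/H4bc24 and H2bc1/H2ac1 had no peak.

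Few gaps separated the extinction group from the control. Of 2014 gaps, 27 (1.34%) were open in both EXT libraries but closed in RC replicate 3. The background was 1.21% of the coding gene ends with known strand. In the other direction 30 (1.49%) were open in RC replicate 3 but closed in both EXT libraries, against 1.01%. Both shares are near the background. That background leaves out genes of unknown strand, while 10 of the 27 and 10 of the 30 gaps have no orientation. More gaps, 88, were open in EXT replicate 2 and RC replicate 3 but not in EXT replicate 1, 92 were open in EXT replicate 2 alone, 21 in EXT replicate 1 alone and 26 in EXT replicate 1 and RC replicate 3 but not EXT replicate 2. With a single complete RC list there was no test between the groups over the genome. The counts rest on single libraries: without EXT replicate 1 they were 119 and 56, and without EXT replicate 2 they were 48 and 118.

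The peaks behind both patterns ranked low in their lists. In the 27 gaps of the EXT pattern, the lower of the EXT percentiles had a median of 16.1 and a highest value of 65.8. In the 30 gaps of the RC pattern the percentile had a median of 11.6 and a highest value of 51.9. A peak of 200 bp or less was the strongest in at least 1 EXT list at 16 of the 27 gaps and in RC replicate 3 at 12 of the 30. The EXT pattern held at 2 of 565 divergent (0.354%), 9 of 448 tandem (2.01%) and 6 of 422 convergent gaps (1.42%). For the RC pattern these were 4 (0.708%), 2 (0.446%) and 14 (3.32%). In equal windows, 1.43% of convergent 3′ ends had the EXT and 2.62% the RC pattern, against 0.445% and 0.980% of single 3′ ends. Divergent 5′ ends had 0.356% and 0.623%, against 1.85% and 0.713% of single 5′ ends. These differences were not tested. The EXT peaks overlapped each other at 21 of the 27, and at 4, Slc35a1/Cfap206 among them, an EXT peak overlapped a peak of RC replicate 3 outside the window. At 3 of the 30 gaps of the RC pattern, the RC replicate 3 peak likewise overlapped an EXT peak outside the window. RC replicate 1, where its list reached, had no peak at the 2 gaps of the RC pattern within its reach, and reached none of the EXT pattern.

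Among gaps of the EXT pattern, Slc35a1/Cfap206, the gene of a sugar nucleotide transporter and that of a cilium protein, ranked first with folds of 4.51 in EXT replicate 1 and 9.77 in EXT replicate 2, within Slc35a1. The divergent Lsr/Fam187b had 6.44 and 3.90 from peaks of 160 and 150 bp. Further gaps named by rank were Sbk2/Sbk3, Unk/Unc13d, Vps35l/Knop1, Exoc3l/E2f4, Cdh24/Acin1, Nme5/Brd8dc and Paf1/Samd4b, whose EXT replicate 1 folds ran from 2.77 to 4.18 and whose EXT replicate 2 folds ran from 2.98 to 6.53. Of the RC pattern, Bap1/Dnah1 ranked first with a fold of 3.94 in RC replicate 3, within Bap1, a deubiquitinase of chromatin. It was followed by Pxk/Pdhb (3.38), Snrnp200/Ciao1 (3.23), Vsig10l/Iglon5 (3.10), Oxld1/Ccdc137 (3.01), Dnd1/Hars (2.93), Ncoa4/Timm23 (2.91), Armc10/Napepld (2.90), Noxo1/Tbl3 (2.87) and Rhof/Setd1b (2.83).

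Chromosome 1 allowed the groups to be compared over more libraries. Up to position 37624379, which all 5 lists reached, there were 10 gaps, of which 4 and 4 were open in EXT replicates 1 and 2 and 4, 3 and 4 in RC replicates 1, 2 and 3. The EXT mean was 40.0% and the RC mean 36.7% ± 5.77, a difference of 3.33 percentage points that rests on 1 gap in RC replicate 2 and was 0 without that library (two-sided exact permutation p = 1, where 3 against 2 allow no p under 0.1). Up to position 166286196, which all lists but that of RC replicate 2 reached, 32 and 38 of 66 gaps were open in EXT replicates 1 and 2 and 39 and 35 in RC replicates 1 and 3. The means were 53.0% ± 6.43 in EXT and 56.1% ± 4.29 in RC (n = 2 each), a difference of -3.03 percentage points in the opposite direction (exact permutation p = 0.667). The groups overlapped in both parts. Gaps in every list numbered 3 of 10 and 30 of 66, and none in either part set all EXT libraries apart from all RC libraries, in either direction.

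Peaks in the gap windows also differed from the other peaks of their library in form, but this was not particular to gaps. The strongest peaks at single starts had median widths of 430, 558.5 and 458.5 bp and median percentiles of 74.2, 82.8 and 75.3 in EXT replicate 1, EXT replicate 2 and RC replicate 3. For the gap windows all peaks were taken, not the strongest alone. The median width of peaks in gap windows was 442.5 bp in EXT replicate 1, 607.5 bp in EXT replicate 2 and 511 bp in RC replicate 3. All other peaks had medians of 204, 240 and 202 bp. The median percentile of fold in gap windows was 65.9, 77.8 and 67.5, against 50.3, 49.8 and 49.8 for all other peaks. Peaks with identical bounds in all 3 lists, of which each list holds 5502 (6.81%, 4.46% and 5.62% of its peaks), were rare in gap windows, at 6 in each library (0.492%, 0.462% and 0.470%).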

How the data were processed

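Chromatin accessibility was measured by ATAC-seq; 5 peak lists, of RC replicates 1 to 3 and EXT replicates 1 and 2, were used, with groups and replicate numbers from the sample titles. MACS 2.2.4 was run by the authors on every library by itself, per the file headers, at a q cutoff of 0.05, without a control and with duplicates retained; single tags were moved by -75 bp and lengthened to 150 bp. The deposited pileup is a coverage signal (tags at the summit), the deposited −log10 p and q values come from the local background, and the authors' fold enrichment is the ratio of pileup to that background. Reads were placed on mm10, per the submitters' processing notes. Kept duplicates and local backgrounds make folds comparable only within a list. As held here, the lists of RC replicates 1 and 2 stop in the middle of a line on chromosome 1, and 1 line was dropped from each. Total tags came from the headers.

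Gene spans came from a RefSeq table of GRCm38.p6, the same build as mm10, and strand and the 300-base windows (250 before to 50 after each listed start) from a RefSeq promoter table, which gives a strand for 16457 of 20665 coding genes. A peak counted with at least 1 bp of overlap. Single ends had no other coding gene within 5 kb. The percentile of a peak is the share of its own list at or below its fold. Shares have exact (Clopper-Pearson) 95% intervals, and 3-library differences a two-sided exact sign-flip permutation test. EXT and RC were compared by a two-sided exact permutation test, which has 10 arrangements of 2 and 3 libraries. The smallest possible p is 0.25 in the first test and 0.1 in the second. Python 3.11.15, numpy 2.4.6, pandas 2.3.3 and scipy 1.17.1 were used, and the functions were tested on simulated data. Members, gene lists and markers were chosen with earlier results of these data known. Named gaps are textbook divergent pairs; the 5 of highest mean percentile in each orientation among those open in all 3 lists; up to 10 of each group pattern; the 5 shortest divergent gaps without a peak and convergent gaps with a peak in all 3; and up to 4 examples a family, the 2 highest and 2 lowest, some of which are not reported here. Genes named by an identifier (122 pairs) were counted and, except in the families, not named. Alternatives were a −log10 q minimum of 5, equal list length, 100 bp of overlap, summits, windows of 250 and 1000 bp, gaps up to 500 and 2000 bp, other definitions of single ends, no other gene in the gap, and leaving out each library.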

Additional observations from a re-analysis of the deposited data

How the results depend on the processing

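Of 187 values over 12 results recomputed under alternatives, 14 moved, 4 reversed and 169 did neither. A difference had only to keep its direction, whatever its size. A threshold on p was also set, but with so few libraries no p could fall below it. Some of the 169 could not change, since other definitions of single ends do not enter results on gaps alone. Among these 169 were differences that changed by over 1.5 times. Those given above are divergent minus single starts among CpG-rich promoters and tandem minus single starts without sensory receptor genes. Convergent minus single 3′ ends with other windows is also given above. Tandem minus single 3′ ends was 23.9 percentage points with gaps up to 2000 bp, against 39.1. The EXT minus RC share on chromosome 1 was 6.67 with 100 bp of overlap or with summits, and 1.67 with windows of 250 bp, against 3.33. The comparisons of divergent with single starts (18.9 to 48.8 percentage points for the share, 4.67 to 7.69 for the percentile), of divergent with convergent gaps (66.7 to 80.1) and of convergent with single 3′ ends (3.93 to 12.6) kept their direction under every alternative run. Alternatives chosen after seeing the data were CpG-rich promoters only, leaving out sensory receptor genes and any listed start. Among CpG-rich promoters the tandem difference reversed to -0.708 percentage points in windows at the outer 5′ end. In windows at the listed start, where base composition was taken, it was 2.25 percentage points. These values differ only in the place of the window, and the cause of the smaller difference was not tested. The EXT minus RC share on chromosome 1 reversed to -1.67 at −log10 q of at least 5, to -3.33 with windows of 1000 bp and to -3.03 on the longer part, and was 0 with gaps up to 2000 bp; the cause was not tested. Leaving out each library gave 0 to 5 percentage points. With replicates 1 and 2 paired by number (replicate block) the difference was 5 percentage points (exact p = 1); 2 pairs over 10 gaps do not show whether the numbers pair the samples. The count of gaps in RC replicate 3 alone was 19 at −log10 q of at least 5, and 56 to 118 without an EXT library. The count in both EXT lists was 13 with gaps up to 500 bp and 44 up to 2000 bp, where fewer or more gaps are tested, and 48 to 119 without an EXT library. Equal list length on chromosome 1, and the group patterns without RC replicate 3, gave no value. Peak lists give no counts per region, so depth limits single gaps in a way that cannot be stated.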
